A study of Mus musculus with 16 samples.

Results

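The genes described here are 55 members of the respiratory chain, 13 protein-coding genes of the mitochondrial genome and 42 nuclear genes, of 49671 genes counted in single cells of mouse dorsal root ganglia (DRG). They were taken from a list of chain subunits, provided that both count tables held them, and were read in wells with at least 10000 UMIs (unique molecular identifiers, each standing for 1 captured mRNA molecule). The mitochondrial members encode 7 subunits of complex I (mt-Nd1 to mt-Nd6 and mt-Nd4l), 1 of complex III (mt-Cytb), 3 of complex IV (mt-Co1 to mt-Co3) and 2 of ATP synthase (mt-Atp6 and mt-Atp8). The nuclear members encode 28 subunits of complex I, 4 of complex II, 5 of complex III, 4 of complex IV and cytochrome c. The mitochondrial and nuclear members are kept apart throughout, because UMIs of mitochondrial transcripts can be counted on copies of these genes in the nuclear genome.

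The respiratory chain sits in the inner mitochondrial membrane. Complex I and complex II pass electrons from NADH and succinate to ubiquinone, complex III passes them on to cytochrome c, and complex IV hands them to oxygen. The pumping of protons by complexes I, III and IV drives ATP synthase, and neurons, which fire and maintain ion gradients over long axons, rely heavily on this supply. Building complexes I, III and IV needs products of both genomes, since nuclear-encoded subunits are imported and joined to the core subunits made inside the organelle.

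The study asked how proprioceptors, the DRG neurons that sense muscle stretch and tension, differ by the muscle they innervate. Single cells were collected at embryonic day 15.5 (e15.5) from PvtdTom mice, a BAC line with tdTomato under the parvalbumin promoter, and at postnatal day 1 (p1) from animals labelled Trpv1Cre; PvFlp; Ai65 and PvCre; Ai14, in which recombinases switch on a tdTomato reporter. There were 10 libraries of 96 wells at e15.5 and 6 at p1, sequenced with CEL-Seq2, which counts transcript 3' ends. The labels say neither which p1 line filled a library nor whether libraries came from separate animals, so p-values measure the spread between libraries, which may be technical. By the study's methods the cells of both ages came from thoracic and lumbar DRG. The Trpv1Cre; PvFlp; Ai65 animals carried either the Basbaum or the Hoon line of Trpv1Cre. The labels give no segmental level for a library, so that level is a further unknown between libraries at both ages. Age, mouse line, dissociation time and the way cells were isolated changed together and cannot be told apart.

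At e15.5, 871 of 960 wells and at p1 369 of 576 wells passed the floor of 10000 UMIs, and library totals ran from 3701900 to 9299431 and from 386517 to 8814472 UMIs. Library 3 of p1 kept 12 wells. Clusters made with the members, all mitochondrial genes and the listed pathway genes held out gave 289 proprioceptor-like wells at e15.5 (median 115187 UMIs a well) and 369 at p1 (median 55049), and at e15.5 also 329 connective-like, 47 other sensory neuron-like, 76 glia-like, 48 proliferating-like and 82 unnamed wells. The 4 proprioceptor markers (Pvalb, Runx3, Etv1 and Ntrk3) summed to 4237 to 4889 CPM (a gene's UMIs relative to the library's total) in the e15.5 proprioceptor-like libraries and to 3201 to 4339 at p1, against 121 to 270 in connective-like ones. The 6 glia markers summed to 15.1 to 133 CPM in proprioceptor-like libraries at e15.5 and to 137 to 617 at p1, and none of them was at 0.

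The ends of mt-Co3 and mt-Co1, where CEL-Seq2 reads fall, are shown with the ends of their nuclear copies, because they differ by few or no bases. All are in GENCODE M21 coordinates of GRCm38, written 5′ to 3′ on the strand of the gene. Capitals mark the last base of mt-Co3, which lies beyond the end of its copy Gm28437, and the base at which Gm13340 differs from mt-Co1. The mt-Co3 stretch is chrM:9330-9390 (plus strand), Gm28437 is chr1:24613189-24613248 (minus strand), mt-Co1 is chrM:6813-6872 (plus strand), Gm29216 is chr1:24615706-24615765 (minus strand) and Gm13340 is chr2:22588103-22588162 (minus strand).
mt-Co3: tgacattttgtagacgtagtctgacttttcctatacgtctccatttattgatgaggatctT
Gm28437: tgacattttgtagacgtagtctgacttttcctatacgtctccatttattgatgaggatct
mt-Co1: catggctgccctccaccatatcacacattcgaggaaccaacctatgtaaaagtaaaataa
Gm29216: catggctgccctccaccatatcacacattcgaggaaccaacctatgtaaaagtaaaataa
Gm13340: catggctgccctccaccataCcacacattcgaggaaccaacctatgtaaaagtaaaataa

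Of 22 annotated copies with at least 95% identity to a member over at least 80% of the copy, 11 were of 9 mitochondrial members and 11 of 6 nuclear members. A block of 7 copies lies within 4663 bases of chromosome 1 (chr1:24611535-24616197), and its copies of mt-Co2, mt-Co3, mt-Atp6, mt-Nd4 and mt-Nd4l are identical to these genes over the length of the copy. In e15.5 proprioceptor-like wells, the share of UMIs on copies, of those on the gene and its copies together, had a median over libraries of 98.0% for mt-Co3, 96.6% for mt-Co2, 96.1% for mt-Atp6, 95.7% for mt-Nd4l, 94.96% for mt-Nd3 and 88.4% for mt-Co1. The count on each of these 6 genes was thus a small remainder of the molecules with its sequence. The share was lower for mt-Nd2 (49.1%), mt-Nd4 (19.4%) and mt-Nd5 (8.73%), and mt-Nd1, mt-Cytb, mt-Nd6 and mt-Atp8 had no copy by this measure.

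The same shares moved between the ages. At p1 the median was 85.8% for mt-Co3, 91.1% for mt-Co2, 90.4% for mt-Atp6, 89.0% for mt-Nd4l, 93.0% for mt-Nd3, 80.1% for mt-Co1 and 41.1% for mt-Nd2, each below its e15.5 value. It was above the e15.5 value for mt-Nd4 (26.9%) and mt-Nd5 (16.4%). Among nuclear members, Ndufs3, a core subunit of complex I, had 55.4% of these UMIs on a copy at e15.5 and 50.5% at p1. Uqcrb, Ndufs6, Cycs, Cox6c and Ndufs5 had 24.6%, 22.3%, 19.1%, 12.3% and 6.95% at e15.5 and 30.8%, 25.1%, 21.2%, 10.8% and 11.3% at p1, so that their levels are uncertain by these shares. How reads that match several places were counted is a step not given in the sources used here.

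Between e15.5 and p1 proprioceptor-like wells, counted on the genes alone, 10 of 13 mitochondrial members rose and none fell (edgeR quasi-likelihood test on sums per library, with Benjamini-Hochberg adjustment over 13915 genes). Of all genes tested, 30.3% were called higher and 31% lower at p1. Levels are in normalised CPM, CPM after the scaling of the fit. mt-Co3, a core subunit of complex IV, ran from 50.1 to 132 normalised CPM over the 10 e15.5 libraries (median 63.8). At p1 it had 201, 174 and 301 in libraries 1 to 3 and 856, 861 and 979 in libraries 4 to 6. Every p1 library lay above every e15.5 library, and the p1 libraries fell apart at more than a 2-fold distance. The log2 fold change was 2.98 ± 0.33 (SE, adjusted p = 3.02e-07).

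With the UMIs of Gm28437 added, mt-Co3 ran from 2898 to 3952 normalised CPM at e15.5 (median 3454) and from 3921 to 4397 at p1 (median 4177). The p1 libraries no longer fell apart, and the ages overlapped. The log2 fold change became 0.28 ± 0.080 (adjusted p = 0.0056). Most of the difference of mt-Co3 alone was thus absent once its copy was counted with it, and Gm28437 itself had a log2 fold change of 0.098 (adjusted p = 0.38).

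With copies added, 8 of the 13 rose, where 30.3% of 13894 genes were called higher, and their median log2 fold change over all 13 went from 1.07 to 0.34. In complex I, mt-Nd3 rose by 0.84 ± 0.11 on the log2 scale (1.35 alone), mt-Nd5 by 0.50 ± 0.096 (0.39 alone), mt-Nd4 by 0.34 ± 0.13 (0.18 alone and not called) and mt-Nd1, which has no copy, by 0.34 ± 0.14. In complex IV, mt-Co2 rose by 0.60 ± 0.084 (1.91 alone), mt-Co3 by 0.28 and mt-Co1 by 0.23 ± 0.086 (1.07 alone). mt-Co2 was the 1 member whose libraries did not overlap with copies added, at 6160 to 7976 normalised CPM at e15.5 and 9148 to 12395 at p1. The calls of mt-Nd2 (0.11 ± 0.10), mt-Nd4l (0.36 ± 0.15) and mt-Atp6 (0.090 ± 0.11) were lost with copies added.

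mt-Atp8, an accessory subunit of ATP synthase, had the highest log2 fold change with copies added, 2.19 ± 0.23, with 27.6 to 82.3 normalised CPM at e15.5 (median 37.7) and 62.1 to 264 at p1 (median 215). Only library 3 of p1 fell within the e15.5 range. No copy of mt-Atp8 is annotated, so this value is of the gene alone. The gene lies between mt-Co2 and mt-Atp6, which have identical copies in the block on chromosome 1. Whether UMIs of mt-Atp8 were lost to that block was not tested. mt-Atp8 (chrM:7766-7969) overlaps mt-Atp6 (chrM:7927-8607) and shares a transcript with it, as mt-Nd4l does with mt-Nd4, so the UMIs of these pairs cannot be told apart with certainty. mt-Cytb, the core of complex III, ran from 3786 to 6453 normalised CPM at e15.5 and from 4480 to 7083 at p1 and was not called (log2 fold change 0.24 ± 0.13). mt-Nd6, encoded on the opposite strand of the mitochondrial genome, was the 1 member with a value below 0 (-0.32 ± 0.14, adjusted p = 0.057, unadjusted p = 0.0357). The mitochondrial ribosomal RNAs mt-Rnr2 and mt-Rnr1, transcribed from the same genome, were 3.17-fold and 2.88-fold higher at p1.

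**Figure D1:**
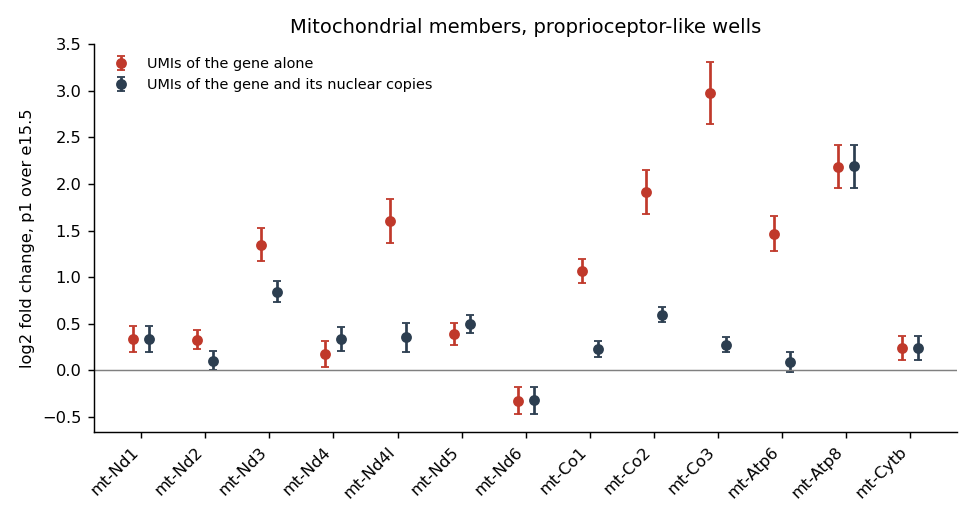
Log2 fold change from e15.5 to p1 (y axis) of the 13 mitochondrial members (x axis) in proprioceptor-like wells, with UMIs of the gene alone in red and with the UMIs of its nuclear copies in dark blue; points are edgeR estimates over 10 and 6 libraries and bars are SE. mt-Co3 moves from 2.98 to 0.28 when its copy is added. mt-Atp8, for which no copy is annotated, is at 2.19 on the gene alone in both.

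Among the 42 nuclear members, 24 rose and 1 fell from e15.5 to p1, with a median log2 fold change of 0.30 beside -0.019 over all 13915 genes. The count changed with the depth of the wells and with how they were weighed and scaled, described further on. By complex, 17 of 28 members of complex I rose and 1 fell, and 1 of 4 of complex II, 3 of 5 of complex III, 2 of 4 of complex IV and Cycs rose. For 7 members the libraries did not overlap, all higher at p1, where 10.4% of all genes had such higher libraries. They were Ndufa2, Ndufa4, Ndufa5, Ndufa10, Ndufs5, Cox6c and Cycs.

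Ndufa5 (chr6:24518666-24528013, minus strand), an accessory subunit in the matrix arm of complex I, had the highest fold change of the nuclear members. It ran from 149 to 206 normalised CPM over the e15.5 libraries (median 178) and from 363 to 499 at p1 (median 439). The ages were far apart, and the log2 fold change was 1.31 ± 0.080 (2.48-fold, adjusted p = 7.46e-11). It was called higher at p1 in 33 of 34 settings tried (log2 fold change 0.76 to 1.55). It had 0.67 in the other, a fit with a lone e15.5 library described further on.

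The other leading members sit in different complexes. Ndufa4, first described in complex I and since found in complex IV, ran from 173 to 246 normalised CPM at e15.5 and from 303 to 517 at p1 (log2 fold change 0.91 ± 0.11, adjusted p = 4.82e-07). Ndufa2, an accessory subunit of complex I, ran from 108 to 154 and from 186 to 245 (0.90 ± 0.090, adjusted p = 6.72e-08). Cox5b, a complex IV subunit on the matrix side, ran from 107 to 182 and from 100 to 345 (0.79 ± 0.16, adjusted p = 0.0003), with library 3 of p1 alone at the low end. Cycs, the cytochrome c that carries electrons between complexes III and IV, ran from 266 to 391 and from 406 to 774 (0.76 ± 0.13, adjusted p = 3.6e-05). Cox6c, Ndufs5 and Ndufa10 followed at 0.74 each.

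Ndufa9, a complex I subunit that holds the matrix arm to the membrane arm, was the 1 member that fell, with 89.7 to 129 normalised CPM at e15.5, 76.4 to 109 at p1 and a log2 fold change of -0.23 ± 0.087 (adjusted p = 0.028). This call was lost with classes taken from markers well by well (adjusted p = 0.11), with the library number as a replicate block (0.25), in wells of 50000 to 100000 UMIs (0.18) and without p1 library 2, 5 or 6 (0.074, 0.066 and 0.055), and the value was 0.049 in wells of at least 100000 UMIs. The 17 members without a call included all but Sdhc of complex II, Cox4i1 and Cox5a of complex IV, and Uqcrc2 and Uqcrfs1 of complex III. Uqcrfs1, the Rieske iron-sulfur protein, had a log2 fold change of 0.016 ± 0.20. Its p1 libraries lay on both sides of the e15.5 range of 319 to 449 normalised CPM, with 530, 470 and 779 in libraries 1 to 3 and 235, 234 and 271 in libraries 4 to 6. The same libraries stood apart in mt-Co3, in the opposite order. The labels give neither the mouse line nor the segmental level of these libraries.

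**Figure D2:**
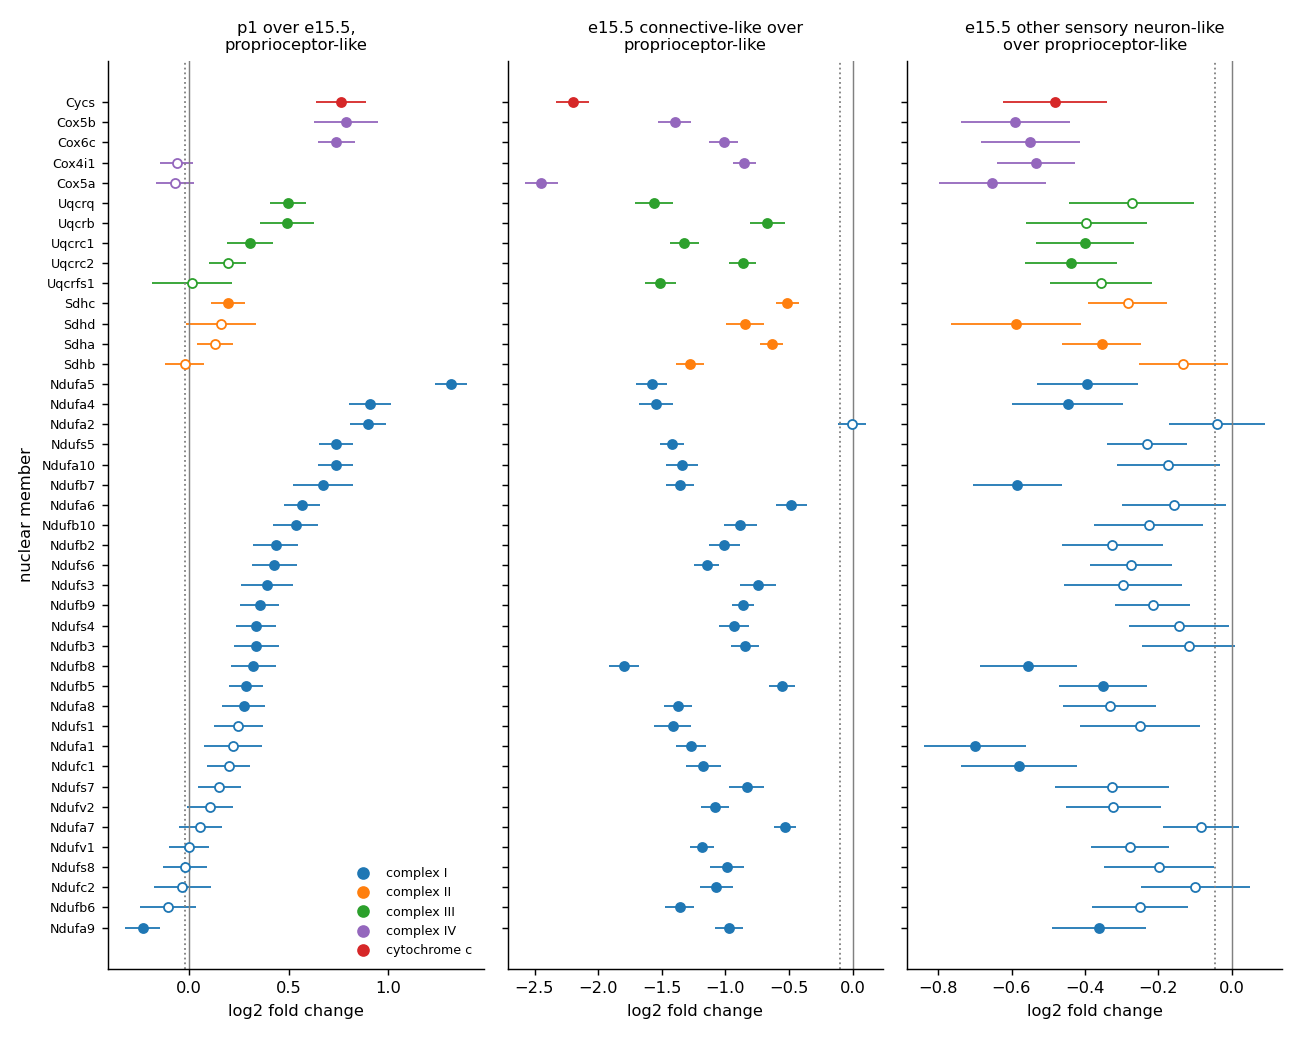
Log2 fold change (x axis) of the 42 nuclear members (y axis) from e15.5 to p1 in proprioceptor-like wells (left), and of e15.5 connective-like (middle) and other sensory neuron-like wells (right) over proprioceptor-like wells; points are edgeR estimates, bars are SE, filled points passed an adjusted p of 0.05, colours give the complex and the dotted line is the median of all genes tested. In the left panel 24 filled points lie above 0 and Ndufa5 farthest at 1.31, in the middle panel 41 of 42 lie filled below 0, and in the right panel 17 do.

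The p1 wells were shallower, and their members moved with depth. At p1 the nuclear members took a median of 0.442% of a well's UMIs in the 69 wells of 10000 to 20000 UMIs, 0.581% in the 103 wells up to 50000, 0.884% in the 105 wells up to 100000 and 1.15% in the 92 deeper wells. At e15.5 the same 4 medians were 0.917%, 1.11%, 0.783% and 0.824%. The nuclear share was thus higher in deeper wells at p1 and had no such order at e15.5, also without cluster 7, a cluster of low mitochondrial share described further on (0.843%, 0.863%, 0.777% and 0.824%). Within p1 libraries, the rank correlation of a well's UMIs with its nuclear share was positive in 6 of 6 (median rho 0.73, 0.16 to 0.81), as a description over wells that share a library. Within e15.5 libraries it was negative in 5 of 8 (median -0.13). The share of the mitochondrial members with copies also went up with depth at p1, with medians of 2.07%, 3.20%, 5.29% and 6.88%. At e15.5 these medians were 4.97%, 1.55%, 6.10% and 6.02%, and 7.10%, 6.93%, 6.23% and 6.02% without cluster 7. The p1 medians thus lay below those of e15.5 without cluster 7 in every range but the deepest. The test between ages with copies added was not repeated by depth. The share on all genes of the mitochondrial genome, ribosomal RNAs included and copies not, was higher in p1 clusters of shallower wells. Its median was 16.1% in p1 cluster 1 (118 wells, median 21629 UMIs) and 6.45% in cluster 4 (47 wells, 180092 UMIs). Cluster 1 also had the lowest sum of proprioceptor markers of the p1 clusters, 2295 CPM against 4210 in cluster 4. The quality of its wells was not tested.

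The test between ages, repeated in 3 ranges of depth chosen after seeing the data, turned direction. In wells of 10000 to 50000 UMIs (46 wells of 5 libraries at e15.5 and 172 wells of 6 at p1), 1 nuclear member rose and 20 fell, where 26% of 6552 genes were called higher and 29.7% lower, and the median log2 fold change was -0.53. Of these 46 e15.5 wells, 30 were of cluster 7. Without that cluster 1 e15.5 library of 14 wells was left, assumed to vary like the p1 libraries, and edgeR called none of the 42 nuclear and none of the 13 mitochondrial members, where 4.29% of 10692 genes were called higher and 3.59% lower. At an unadjusted p under 0.05, 1 nuclear and 4 mitochondrial members were higher and none lower, and the nuclear median was -0.23 beside 0.11 over all genes. The 20 lower calls in shallow wells thus rested on a range in which most e15.5 wells were of cluster 7. In wells of 50000 to 100000 UMIs (51 wells of 4 libraries and 104 wells of 5), 22 rose (median 0.42), where 25.8% of 10056 genes were called higher. In wells of at least 100000 UMIs (169 wells of 9 libraries and 92 wells of 5), 37 rose (median 0.53), where 28.8% of 13085 genes were called higher. Cox5a went from -1.29 ± 0.26 through -0.064 to 0.28 ± 0.073, and Cycs from -0.11 ± 0.33 to 0.97 ± 0.11. Ndufa5 rose in each range, by 0.76 ± 0.16, 1.55 ± 0.15 and 1.32 ± 0.077.

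Sums weigh a deep well more than a shallow one. With wells weighted equally (limma on log2 of mean CPM plus a pseudocount of 1), 4 nuclear members rose and 15 fell, where 17.9% of genes were called higher and 41% lower. The nuclear median was -0.27 beside -0.34 over all genes, and the higher share of all calls went from 49.4% to 30.4%. This fit also left out the scaling used in the sums. Unscaled mean CPM of the sums had a median log2 ratio of -0.24 over the tested genes. Weighting and scaling thus cannot be told apart in this fit. With every well thinned to 10000 UMIs, 14 rose and 4 fell, where 28.3% of 6855 genes were called higher and another 28.3% lower. In wells without a UMI of a glia marker 10 rose and 1 fell (23.6% and 22.3% of 8226 genes). Of the 35 members of both genomes called in the sums, none was called the same way in all 34 settings. In the 33 settings other than the fit with a lone e15.5 library, 6 were, mt-Nd3, mt-Co1, mt-Co2, mt-Co3, mt-Atp8 and Ndufa5. Only the setting with copies added counted UMIs on copies, and it was not combined with depth, weighting or thinning. The other settings counted mt-Nd3, mt-Co1, mt-Co2 and mt-Co3 on the gene alone, a small remainder of the molecules with its sequence. Depth, glia markers and age moved together here, and their parts in the differences were not tested. In these sums, fewer transcripts per cell and more shallow cells cannot be told apart.

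**Figure D3:**
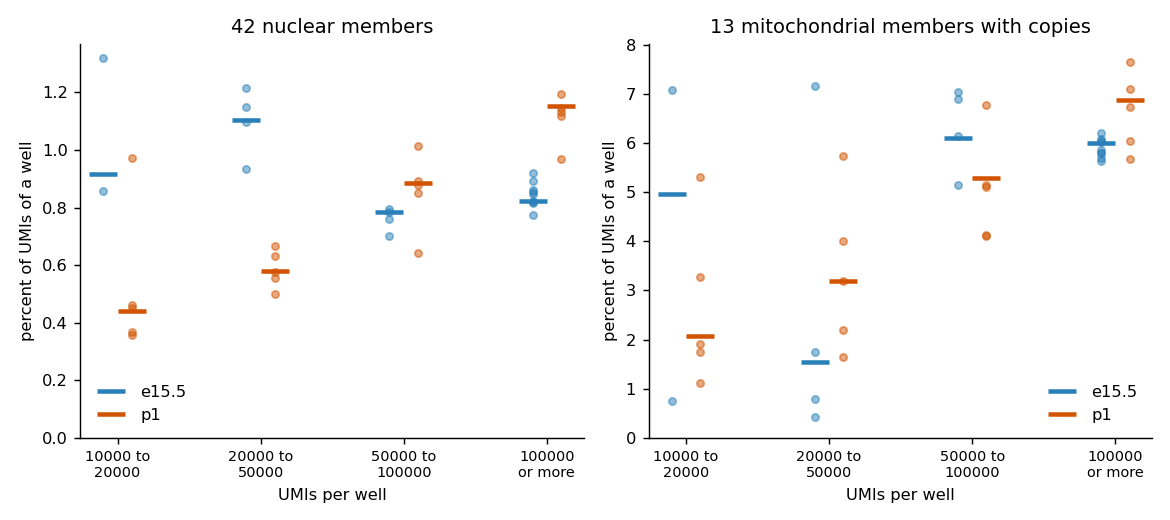
Percent of a well's UMIs (y axis) on the 42 nuclear members (left) and on the 13 mitochondrial members with their copies (right) in proprioceptor-like wells of 4 ranges of UMIs per well (x axis), at e15.5 in blue and p1 in orange; bars are medians over wells and points are medians of libraries with at least 5 wells in the range. The p1 nuclear medians climb from 0.442% to 1.15%, and the e15.5 medians of 0.917% and 1.11% in shallow wells lie above those of 0.783% and 0.824% in deeper ones.

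Promoter sequences from RefSeq (GRCm38.p6, 250 bases before to 50 after the gene's start) matched 33 of the 42 nuclear members. The site bound by the transcription factor NRF1 (GCGC, then any base, then TGCGC), looked for on both strands, stood in 8 of the 33 (Ndufa5, Ndufa6, Ndufa8, Ndufs5, Ndufs6, Sdha, Sdhd and Uqcrc1), beside 5.19% of 27025 promoters. CCGGAAG, a core of ETS sites, also looked for on both strands, stood in 6 of the 33, beside 9.93% of all promoters. A match is a description of letters and not of binding. Both RefSeq starts of Ndufa5 lie inside the GENCODE gene, 323 and 487 bases from its start, and its windows are not printed. The promoter of Uqcrc1 (chr9:108936398-108936697, plus strand), whose RefSeq start lies 15 bases from the GENCODE start, is shown as 1 with 2 matches, with the matches in capitals.
Uqcrc1: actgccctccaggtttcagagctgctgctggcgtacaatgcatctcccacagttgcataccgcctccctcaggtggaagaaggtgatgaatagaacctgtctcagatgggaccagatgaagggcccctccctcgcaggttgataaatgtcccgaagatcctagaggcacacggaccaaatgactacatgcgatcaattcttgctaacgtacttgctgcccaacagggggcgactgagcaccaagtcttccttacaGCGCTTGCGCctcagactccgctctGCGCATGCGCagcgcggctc

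The widest difference of the nuclear members was between cell classes of 1 age. In connective-like wells at e15.5, 41 of 42 nuclear members were lower than in proprioceptor-like wells, where 41.7% of 12903 genes were called lower and 36.1% higher. Their median log2 fold change was -1.08, beside -0.10 over all genes. For 36 of the 42 no connective-like library reached the lowest proprioceptor-like library, as for 24.4% of all genes. All members of complexes II, III and IV and Cycs were among the 41, and 34 of the 45 members called in both genomes were called the same way in all 23 settings tried. Connective-like wells had a median of 27242 UMIs, against 115187. Thinned to 10000 UMIs a well, 33 of 41 nuclear members were lower, where 35% of 4826 genes were. The 5 blood markers summed to 9.45 to 30851 CPM in connective-like libraries (median 259.9) and to 7.40 to 144 in proprioceptor-like ones, and the 4 endothelial markers to 11.1 to 595 against 1.97 to 7.59, with none of them at 0. Their part in the difference was not tested.

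Cox5a (chr9:57521274-57532426, plus strand), a complex IV subunit on the matrix side, differed most. It ran from 503 to 611 normalised CPM over 10 proprioceptor-like sums (median 561) and from 73.6 to 151 over 9 connective-like sums (median 97.7). It was 5.45-fold lower (log2 fold change -2.45 ± 0.13, adjusted p = 3.3e-19). Cycs ran from 298 to 411 (median 375) and from 61.05 to 143 (median 73.5), 4.6-fold lower (-2.20 ± 0.13, adjusted p = 4.23e-18).

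Next came 2 accessory subunits of complex I and 1 of complex III. Ndufb8 ran from 228 to 275 in proprioceptor-like and from 62.7 to 90.9 normalised CPM in connective-like libraries (-1.80 ± 0.12, adjusted p = 8.71e-17). Ndufa5, which also led the difference between ages, ran from 167 to 235 and from 52.1 to 78.4 (-1.58 ± 0.12, adjusted p = 1.41e-14). Uqcrq ran from 264 to 344 and from 65.3 to 158 (-1.56 ± 0.15, adjusted p = 5.82e-12). Ndufa2 was the 1 nuclear member that was not called (-0.0062 ± 0.11), with a median of 131 normalised CPM in proprioceptor-like and 143 in connective-like libraries.

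The mitochondrial members did not follow the nuclear ones in this comparison. Counted alone, 4 of 13 were lower in connective-like wells, mt-Nd1 (-0.50 ± 0.17), mt-Nd2 (-0.37 ± 0.14), mt-Nd5 (-0.36 ± 0.14) and mt-Co1 (-0.38 ± 0.17), and the median was -0.36. With copies added none was called by edgeR (36.1% of 12884 genes were lower), at an unadjusted p under 0.05 none either, and the median was -0.17, beside 0.10 over all genes in that fit. The count depended on the choice, at 0 to 3 with a library left out, moving to 0 with mitochondrial genes kept out of the scaling (36.1% of all genes lower), to 1 with DESeq2 (39.6% of all genes lower) and to 10 with the library as a block (41.7%), and stayed at 4 with limma (36.1%). The scaling moved the median of all genes from -0.10 to 0.10, and the nuclear members kept 41 lower calls under it.

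Other sensory neuron-like wells were closer. Of the 42 nuclear members, 17 were lower than in proprioceptor-like wells by edgeR, where 8.73% of 12903 genes were called lower and 8.16% higher, and the median was -0.33 beside -0.045 over all genes. At an unadjusted edgeR p under 0.05 there were 28, all of them lower, and the share of all genes at that threshold was not counted. All 4 nuclear members of complex IV and Cycs were among the 17, with 8 of 28 of complex I, 2 of 4 of complex II and 2 of 5 of complex III. For 10 members the libraries did not overlap, as for 5.28% of all genes on the lower side. The 6 glia markers summed to 12.2 to 776 CPM in the 5 libraries of this class (median 184), against 15.1 to 133 in proprioceptor-like ones (median 25.8). The 8 connective markers summed to 30.7 to 1110 CPM, against 24.0 to 276. Their part in the difference was not tested. The class pools cluster 12 (24 wells), with more UMIs on mechanoreceptor than nociceptor markers, and cluster 15 (23 wells), with the reverse.

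Ndufa1, a membrane-arm subunit of complex I, ran from 92.6 to 147 normalised CPM in proprioceptor-like libraries and had 80.2, 80.6, 67.7, 69.2 and 64.0 in the 5 other sensory neuron-like ones (-0.70 ± 0.14, adjusted p = 0.00026). Cox5a had 281, 331, 371, 391.6 and 434 against at least 503 (-0.65 ± 0.15, adjusted p = 0.001). Neither overlapped. Cox5b (-0.59 ± 0.15), Sdhd, a membrane anchor of complex II (-0.59 ± 0.18), and Ndufb7 of complex I (-0.58 ± 0.12) followed. Sdhd lost its call with the library as a block (adjusted p = 0.062).

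These calls came from 5 libraries of the class and changed with the fit. The count of 17 fell to 8 or 9 without e15.5 library 1, 3, 4 or 5. Of all genes, 784 of 13183, 717 of 12994, 906 of 12765 and 754 of 13127 were then lower. Library 4 gave no other sensory neuron-like sum, and without it the median of all genes moved from -0.045 to 0.016. The count was 12 with copies added (7.37% of 12884 genes), 4 in thinned wells (4.48% of 4826 genes), 23 with the library as a block (10.9% of all genes) and 17 with DESeq2 (8.87%). Only Cox5a was called in all 23 settings. None of the 13 mitochondrial members was called by edgeR, DESeq2 or limma, and none had an unadjusted edgeR p under 0.05. Their log2 fold changes ran from -0.39 to 0.059.

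As shares of all UMIs, the nuclear members took 0.845% ± 0.040 (SD, n = 10 libraries) in e15.5 and 0.931% ± 0.13 (n = 6) in p1 proprioceptor-like wells, 0.691% ± 0.077 (n = 5) in other sensory neuron-like, 0.394% ± 0.041 (n = 9) in connective-like and 0.383% ± 0.024 (n = 5) in proliferating-like wells. The connective-like and proliferating-like libraries thus lay below the lowest proprioceptor-like library (0.77%). The mitochondrial members with copies took 5.67% ± 0.58, 6.06% ± 0.82, 5.58% ± 0.61, 4.81% ± 0.62 and 4.19% ± 0.30 in the same order, and the ranges of the first 4 overlapped. The ratio of the mitochondrial to the nuclear share was 6.73 ± 0.83 in e15.5 proprioceptor-like, 6.53 ± 0.42 in p1 proprioceptor-like, 12.2 ± 1.29 in connective-like and 10.97 ± 0.74 in proliferating-like libraries. These shares are sums over the members and carry no test.

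Glia-like wells had a nuclear share of 0.694% ± 0.075 (n = 8) and a mitochondrial share of 5.95% ± 2.16, with 1 library at 11.1%. Their glia markers summed to 1473 to 8307 CPM, and their 4 proprioceptor markers to 1052 to 4244, up to the level of proprioceptor-like libraries, and no test of these wells is given.

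**Figure D4:**
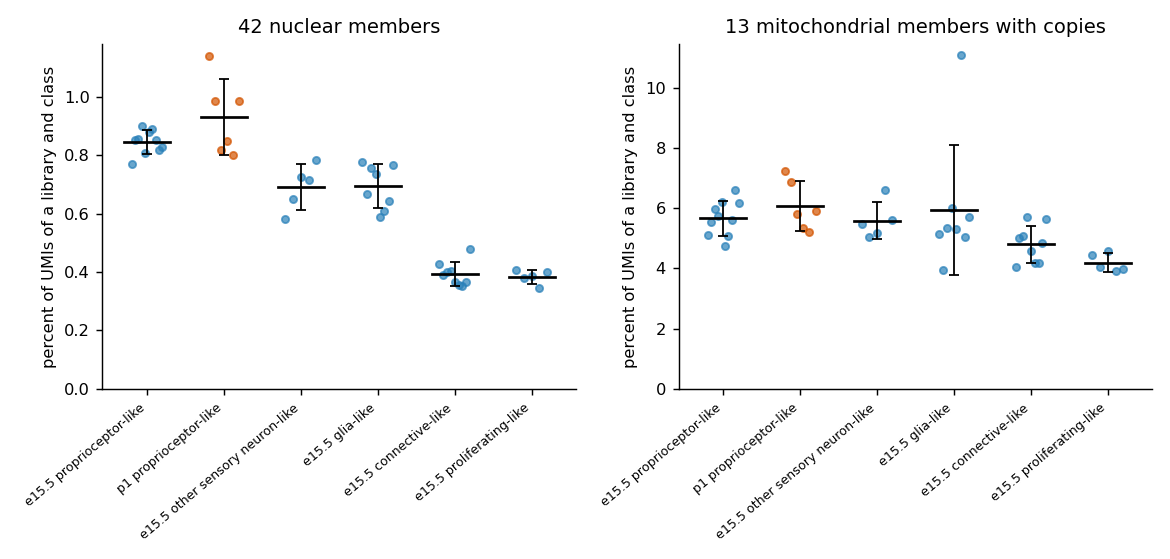
Percent of the UMIs of a library and class (y axis) on the 42 nuclear members (left) and on the 13 mitochondrial members with copies (right), by age and cell class (x axis); points are libraries with at least 5 wells (e15.5 blue, p1 orange), long bars are means and error bars SD. The nuclear means fall from 0.845% in e15.5 proprioceptor-like to 0.394% in connective-like wells, and the mitochondrial means from 5.67% to 4.81%.

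The e15.5 proprioceptor-like wells fell into 3 clusters, of which cluster 7 stood apart in both sets of members. Its 42 wells were led by Nefl, Nefm and Prph, which encode neuronal intermediate filaments, and by Etv1 and Pvalb, 2 of the proprioceptor markers, and had a median of 29984 UMIs against 123776 and 127960 in clusters 2 and 4. Mitochondrial members with copies took 1.47% of its UMIs, against 5.94% and 6.21%, and were under 1% in 27 of the 42 wells and in no well of the other clusters. The nuclear members took 1.13%, against 0.803% and 0.843%. The shares thus moved in opposite directions. Among the wells of cluster 7 the mitochondrial share ran from 0.168% to 28.1% (median 0.728%). The highest well was of library 6, whose 7 wells of the cluster had a pooled share of 1.88% beside a median of 0.718%.

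Within the 4 libraries with enough wells of cluster 7, all 13 mitochondrial members were lower in it than in the other proprioceptor-like wells in each library, at a median ratio of 0.24 (0.17 for mt-Atp8 to 0.40 for mt-Nd6). Of the 42 nuclear members, 36 were higher in each of the 4, at a median ratio of 1.39, with Ndufs8 at 1.98 and Ndufs1 at 1.14 at the ends. The same counts and ratios over all genes were not made, so these values cannot be called particular to the members. The cluster was singled out after its values were seen, and no test is given. Without it 25 nuclear members rose to p1 and 1 fell, where 4208 of 13814 genes were called higher and 4233 lower. In connective-like wells 7 mitochondrial members were then lower, where 5360 of 12921 genes were.

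**Figure D5:**
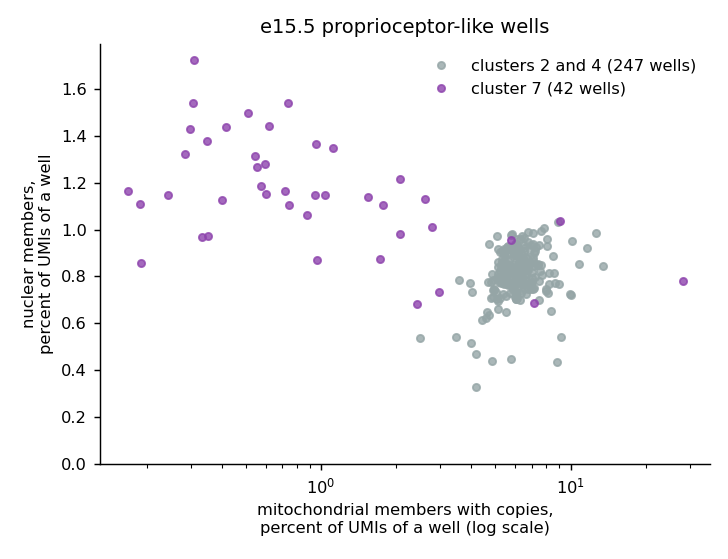
Percent of a well's UMIs on the 42 nuclear members (y axis) against the percent on the 13 mitochondrial members with copies (x axis, log scale) in 289 e15.5 proprioceptor-like wells, cluster 7 in purple and clusters 2 and 4 in grey; each point is 1 well. Most wells of cluster 7 lie left of 1% (27 of 42) and high on the y axis, and no grey well does.

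Genes around the chain were read from lists written with earlier results known. Between ages, where 30.3% of genes were higher and 31% lower, 11 of 20 other chain subunits were higher at p1 and 1 lower, and 7 of 13 citric acid cycle genes were higher and 3 lower. Higher calls were near the share of all genes for ATP synthase genes (6 of 18, with 2 lower, median log2 fold change 0.024). The same held for assembly factors (12 of 39, with 11 lower, median -0.10). Of the glycolysis genes, 3 of 16 were higher and 11 lower. Of the subunits, Cox7c (complex IV) had 163 ± 43.9 and 540 ± 112 normalised CPM (mean ± SD; log2 fold change 1.75 ± 0.16), Ndufa3 1.06 ± 0.13 and Uqcr11 0.92 ± 0.15 as log2 fold changes. Ndufa4l2, the isoform that can replace Ndufa4, went from 4.27 ± 1.76 to 35.2 ± 15.5 normalised CPM (3.29 ± 0.25).

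Regulators of mitochondrial transcription moved both ways, with 5 of 18 higher and 6 lower, near the shares of all genes. The coactivator Ppargc1b rose from 19.7 ± 8.12 to 102 ± 22.9 normalised CPM (2.45 ± 0.19) and Tfb2m, a factor that opens mitochondrial promoters, from 8.48 ± 2.73 to 33.4 ± 8.03 (2.06 ± 0.19), while Tefm, the elongation factor, fell (-0.73 ± 0.26). Of the enolases, neuronal Eno2 rose (1.5 ± 0.10) and Eno1 fell (-0.75 ± 0.16). Cs, citrate synthase, fell (-0.56 ± 0.10).

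In connective-like wells 5 of the lists were mostly lower, with 18 of 20 other chain subunits, 17 of 18 ATP synthase genes, 31 of 37 assembly factors, 11 of 13 citric acid cycle genes and 14 of 17 glycolysis genes lower, beside 41.7% of all genes. Of the genes for mitochondrial transcription and copy number, 6 of 18 were higher and 6 lower (median log2 fold change -0.018), and both tissue isoforms tested and 1 of 2 mitochondrial ribosomal RNAs were higher. Ppargc1a, a coactivator that drives mitochondrial biogenesis, had 146 ± 19.1 normalised CPM in proprioceptor-like and 8.37 ± 6.71 in connective-like libraries (-3.91 ± 0.25), and Ndufaf5, an assembly factor of complex I, 102 ± 16.9 and 19.0 ± 4.16 (-2.42 ± 0.17). Hexokinase 2 (Hk2) ran the other way, from 0.65 ± 0.83 to 30.6 ± 17.5 (5.78 ± 0.45), as did Ndufa4l2 (3.18 ± 0.40) and Polg2, a subunit of the mitochondrial DNA polymerase (2.26 ± 0.26).

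In other sensory neuron-like wells, 11 of 20 other chain subunits, 11 of 18 ATP synthase genes, 4 of 13 citric acid cycle genes and 8 of 17 glycolysis genes were lower, beside 8.73% of all genes. Of the assembly factors 3 of 37 were lower, near that share. Ppargc1a was again the widest of its list, with 25.6 ± 12.3 normalised CPM (-2.54 ± 0.28, adjusted p = 5.49e-09). Ldhb, the lactate dehydrogenase subunit, had 114 ± 16.5 against 278 ± 35.7 (-1.28 ± 0.17), Atp5g1, a ring subunit of ATP synthase, -0.74 ± 0.15, and Cox7b of complex IV -0.71 ± 0.14 as log2 fold changes.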

How the data were processed

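The authors used the R package scruff to demultiplex CEL-Seq2 reads, map them and count their UMIs. Deposited were raw counts of UMIs, not normalized, in 1 table per age with 96 wells a library. The labels name the builds mm10 and GRCm38, and how reads matching several genes were counted is a step not given in the sources used here. GEO's labels state sorting by fluorescence at both ages, while the study's methods describe manual picking at p1. No 2 kept wells held identical counts, and wells with more than 1 cell were not looked for.

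Wells with at least 10000 UMIs were clustered (scran 1.30.0, scater 1.30.1, igraph 2.1.4, 10 neighbors, 50 principal components) with 237 genes held out, the members, mitochondrial genes, copies and listed pathway genes among them. Clusters were named from marker lists. The members, lists and markers were chosen with earlier results of these data known. Counts were summed per library and class (at least 5 wells) and tested by quasi-likelihood in edgeR (version 4.0.16) after filterByExpr and TMM scaling, with Benjamini-Hochberg adjustment over all genes tested, a threshold of 0.05 and no block. Full statistics are given for the 5 members with the largest fold change in each direction and comparison and for the mitochondrial members, and at most 3 genes are named per list. Copies were found with BLAST (version 2.17.0) in the transcripts of GENCODE M21. DESeq2 (version 1.42.0), limma (version 3.58.1), other filters, scalings, depths and library omissions were alternatives. In simulated counts with 200 genes changed 2-fold, the test found 65.5% of these among 13915 genes for the ages and 66.0% among 12903 for the connective-like comparison. Class sums of the same e15.5 library form pairs. The correlation of their deviations from the class means over 2000 genes had a median of 0.19 in 9 connective-like and proprioceptor-like pairs (0.0018 to 0.41) and 0.34 in 5 pairs with other sensory neuron-like sums (0.11 to 0.56). Precision is limited by the number of libraries; p1 library 3 adds 12 wells.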

Additional observations from a re-analysis of the deposited data

Results flagged for a closer look

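In groups of 4 to 10 libraries the highest or lowest library was compared with its nearest neighbour by Dixon's ratio, which chance passes in about 1 of 20 groups. Of 122 groups of member levels, 12 passed. Of these, 8 were low values of p1 library 3, which kept 12 wells: mt-Co2 at 229 normalised CPM, Ndufa7 at 62.1, Ndufb7 at 43.0, Ndufb10 at 119, Ndufs3 at 33.4, Ndufs7 at 62.1, Ndufv1 at 62.1 and Uqcrc1 at 115. The other 4 were e15.5 proprioceptor-like libraries, with Ndufb3 at 155 in library 4, Ndufb5 at 147 in library 8, Ndufv1 at 146 in library 7 and Cox4i1 at 573 in library 3. Without p1 library 3, 26 nuclear members rose to p1 and 1 fell, beside 24 and 1 with it. Of all genes, 4507 of 14441 were then higher and 4607 lower, beside 4213 and 4307 of 13915 with it.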

How the results depend on the processing

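Between ages, the count of 24 nuclear members higher became 14 without a filter on low counts, 4 with wells weighted equally (limma), 14 in thinned wells, 10 in wells with no glia UMI, 1 in wells of 10000 to 50000 UMIs and 37 in wells of at least 100000 UMIs, and 20 to 26 with a library left out. Of all genes, 5729 of 32632 were higher without the filter, and 3916 to 4507 genes with a library left out. The count of 1 lower became 15 with wells weighted equally, 4 in thinned wells and 20 in wells of 10000 to 50000 UMIs. It became 0 with classes from markers, in wells of 50000 to 100000 and of at least 100000 UMIs, with the replicate block, and without p1 library 2, 5 or 6. In wells of 10000 to 50000 UMIs without cluster 7, 1 e15.5 library was left, and no count of calls is given. In the other settings the 10 mitochondrial members higher were 7 to 11, and between 9 and 11 with a library left out. A mitochondrial member, mt-Nd6, was called lower (count of 1, otherwise 0) without the filter, from 20000 UMIs per well, without cluster 7, in wells of at least 100000 UMIs, and without e15.5 library 6 or 7 or p1 library 1 or 2. Library numbers are shared by both ages but do not pair them (6 pairs, median r -0.22). With the number as a replicate block 17 nuclear members were higher and 0 lower, where 3168 of 12836 genes were higher and 2982 lower. The depth ranges, the fits without cluster 7 and those with copies added were chosen after seeing the data, and the cause of these changes was not tested.

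Sign changes are given for members past the threshold in at least 1 of the fits compared. With wells weighted equally, in a fit that also left out the scaling of the sums, 24 nuclear members changed sign between ages in all. Of these, 20 were past the threshold. The median over all genes in that fit was -0.34 (-0.019 in the sums), so that 13 of these 20 lay above the median of all genes. They were mt-Nd1 (-0.086), Ndufa1 (-0.46), Ndufa7 (-0.58), Ndufa8 (-0.30), Ndufb2 (-0.093), Ndufb3 (-0.29), Ndufb5 (-0.27), Ndufb8 (-0.20), Ndufb9 (-0.22), Ndufs3 (-0.26), Ndufs4 (-0.18), Ndufs6 (-0.13), Ndufs7 (-0.40), Ndufv1 (-0.58), Ndufv2 (-0.52), Ndufc1 (-0.32), Sdhc (-0.36), Uqcrc1 (-0.13), Uqcrfs1 (-0.69), Uqcrb (-0.24), Uqcrq (-0.019). In wells of 10000 to 50000 UMIs they were mt-Nd6 (1.07), Ndufa1 (-0.82), Ndufa4 (-0.13), Ndufa6 (-0.45), Ndufa7 (-0.94), Ndufa8 (-0.84), Ndufb2 (-0.29), Ndufb3 (-0.76), Ndufb5 (-0.78), Ndufb8 (-0.47), Ndufb9 (-0.67), Ndufb10 (-0.17), Ndufs3 (-0.41), Ndufs4 (-0.84), Ndufs6 (-0.37), Ndufs7 (-0.61), Ndufv1 (-0.68), Ndufv2 (-0.94), Ndufc1 (-0.51), Sdhc (-0.72), Uqcrc1 (-0.20), Uqcrc2 (-0.54), Uqcrb (-0.84), Uqcrq (-0.42), Cox5b (-0.42), Cycs (-0.11) (25 nuclear of 28 in all), and without cluster 7 mt-Nd1 (-0.74), mt-Nd2 (-0.37), Ndufa4 (-0.034), Ndufa6 (-0.36), Ndufa8 (-0.19), Ndufb2 (-0.22), Ndufb3 (-0.81), Ndufb5 (-0.43), Ndufb8 (-0.013), Ndufb9 (-0.23), Ndufs3 (-0.24), Ndufs4 (-0.53), Uqcrb (-0.70), Uqcrq (-0.30), Cox6c (-0.42) (13 nuclear of 22 in all). In wells of 50000 to 100000 UMIs it was mt-Nd1 (-0.11), in wells of at least 100000 UMIs Ndufa9 (0.049), Ndufs8 (0.33), Sdhb (0.30), Cox5a (0.28), in thinned wells Ndufa8 (-0.0066) and in wells with no glia UMI Ndufa8 (-0.011). In thinned wells mt-Nd2 (0.039), mt-Nd5 (0.12), mt-Co1 (0.14), mt-Co3 (0.54), Ndufa2 (0.33) changed sign between connective-like and proprioceptor-like wells, and Ndufa9 (0.040) between other sensory neuron-like and proprioceptor-like wells.

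In connective-like wells, 40 or 41 nuclear members were lower with a library left out. The 4 mitochondrial members lower became 1 with DESeq2 and with its size factors, 0 with mitochondrial genes out of the scaling, in thinned wells and with copies added, 9 below the 0.75 quantile of mitochondrial share, 7 without cluster 7, 10 with the replicate block, and 0 to 3 with a library left out (0 without e15.5 library 1, 3, 4 or 10, 1 without 5 and 2 without 9). Of all genes, 4980 of 12903 were lower with the size factors, 5349 of 13157 below the quantile, and 4538 to 5262 genes with a library left out. In thinned wells 1 mitochondrial and 1 nuclear member were higher, otherwise 0. In other sensory neuron-like wells the 17 nuclear members lower became 11 with DESeq2 size factors and with limma, 10 without the filter, 9 below the 0.75 quantile, 4 in thinned wells and 8 to 17 with a library left out. Of all genes, 929 of 12903 were lower with the size factors, 509 of 12903 with limma, 1064 of 30679 without the filter and 809 of 13157 below the quantile. With a library left out 717 to 1153 genes were lower, beside 1127 of 12903 in the sums. The block of paired sums changed no other count by over 1.5 times. The median mitochondrial share with copies added was 5.67% (2.41% without) at e15.5 and 5.86% (2.80%) at p1 in proprioceptor-like, 4.83% (2.07%) in connective-like and 5.48% (2.40%) in other sensory neuron-like wells, and the median e15.5 proprioceptor-like nuclear share was 0.926% of nuclear UMIs (0.852% of all).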
